A study of Homo sapiens with 4 samples.

Results

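The genes described here build the machinery that copies DNA: the replicative polymerases and primase, the origin recognition complex and the proteins that fire origins, the sliding clamp with its loader, the single-strand binding protein, the joining of fragments, fork protection, histone supply and the making of deoxynucleotides. A list of 45 gene symbols set the members, and all 45 matched an Ensembl gene ID among the 20263 in the count table. All 45 also passed the filter on low counts that left 13612 genes for testing. RNA came from MDA-MB-231, an established human cell line from a triple-negative breast cancer, kept for 24 h either with RB-1 or with the solvent DMSO, with 2 libraries per group. The series title calls RB-1 a derivative of ribociclib, a drug that inhibits the kinases CDK4 and CDK6; the labels give no dose. Nothing in the labels says that replicates were grown as separate cultures. The p-values therefore reflect only how far these 4 samples spread, and that spread may be technical.

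Library totals ran from 34122874 to 37754168 counts. The mitochondrial gene MT-CO1 took from 1.21% of the counts (RB-1 replicate 1) to 5.02% (DMSO replicate 2). Levels are given in CPM, the count of a gene scaled to library size by edgeR's cpm function with TMM factors. The label of the line was checked against a list of 10 markers. VIM, CD44 and EGFR were abundant (416 to 5423 CPM over the libraries). Among those listed as low or absent, CDH1 was at most 0.0573, ESR1 at most 0.659 and PGR at most 1.77 CPM. ERBB2, also listed as low or absent, was however present in every library, at 57.3 to 77.2 CPM. The leukocyte marker PTPRC was at most 0.631, the endothelial PECAM1 at most 1.18 and the gut marker KRT20 at 0 CPM. A member was called where edgeR's quasi-likelihood test gave an adjusted p under 0.05 over all tested genes, and log2 fold changes (RB-1 over DMSO) carry their standard error (SE).

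Before a cell divides, the origin recognition complex marks where replication may start, and the kinase CDC7 with its partner DBF4 helps to switch on the loaded helicase, joined by the GINS complex. Polymerase alpha with primase lays down short primers, the RFC complex loads the ring-shaped clamp PCNA onto them, and polymerases delta and epsilon extend them. Many of these genes are transcribed as cells enter S phase through E2F factors, which the retinoblastoma protein holds back until CDK4 and CDK6 inactivate it.

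Transcripts of replication genes fell in part after RB-1, and in several complexes some subunits fell while others did not pass. Of the 45 members 13 were lower, 1 was higher and 31 did not pass. That is 28.9% lower, where 16.1% of all tested genes were lower, and 2.22% higher, where 12.8% of all tested genes were higher. The median log2 fold change was -0.28 over the members and 0.01 over all tested genes. Both RB-1 libraries lay below both DMSO libraries for 24 members (53.3%, against 34.3% of all tested genes) and above them for 7 (15.6%, against 35.3%). In bulk RNA, fewer cells in S phase and less RNA per cell cannot be told apart. Leaving out DMSO replicate 1 gave 7 lower members, DMSO replicate 2 gave 8 and RB-1 replicate 1 gave 7, where 9.78%, 9.38% and 7.65% of all tested genes were lower. The number was 8 with library totals alone in place of TMM, where 10.3% of all tested genes were lower.

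**Figure D1:**
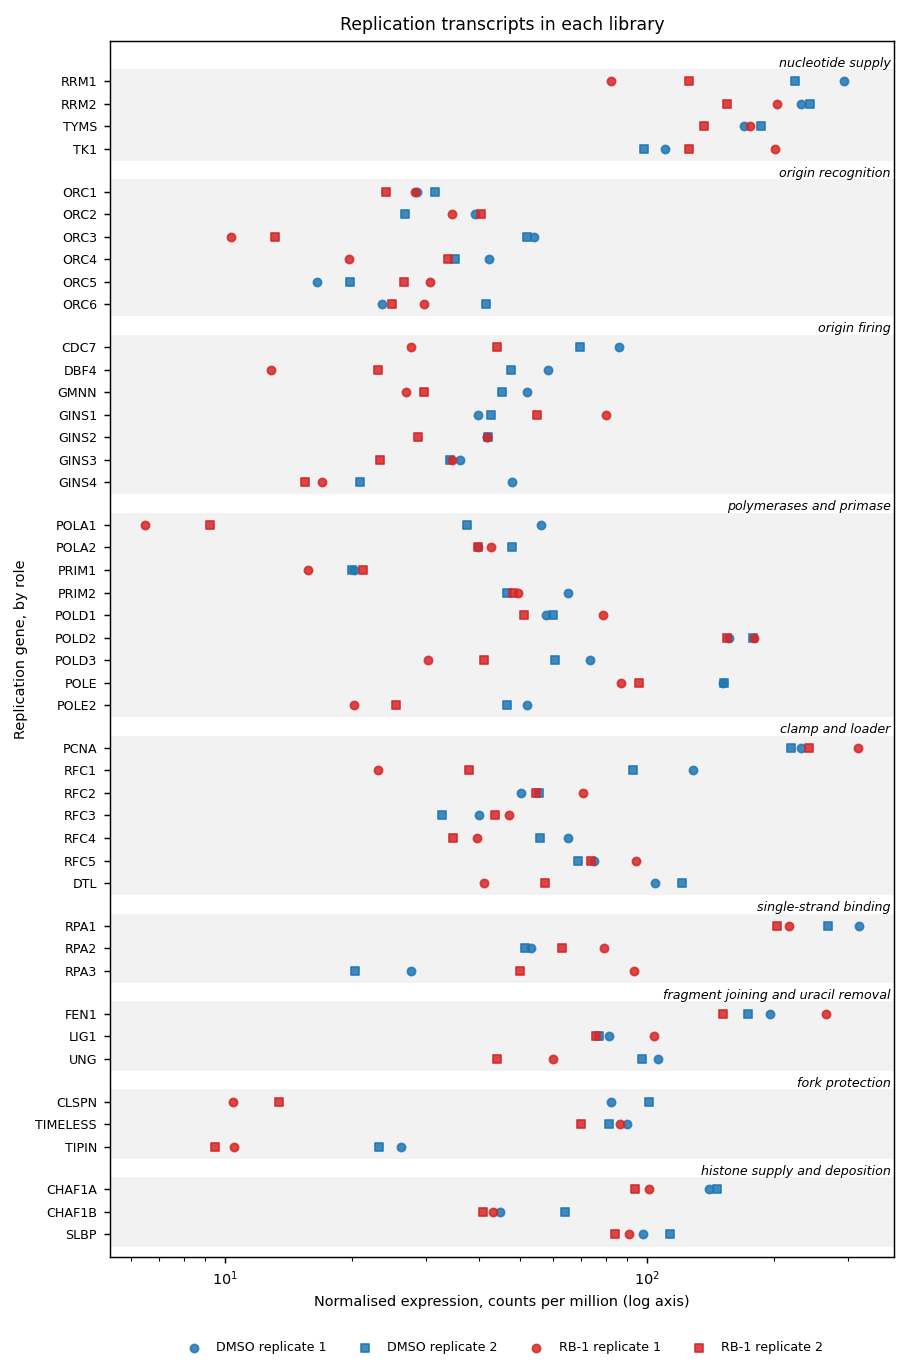
Normalised expression of the 45 replication genes (rows, by role) in each library, in CPM on a log axis; blue marks are DMSO, red marks RB-1, circles replicate 1 and squares replicate 2. CLSPN, POLA1, ORC3 and RFC1 have both red marks far to the left of both blue marks, while PCNA, POLD2 and FEN1 do not.

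Promoter sequences are shown for 6 members, to set beside one another genes that fell (POLA1, POLE, ORC3, DTL) and genes that did not pass (POLA2, PCNA) whose promoters all hold an E2F word. They come from RefSeq (GRCh38.p14) and run over the 150 bases before the annotated gene start, 5′ to 3′ on the gene's strand, with the E2F words in capitals.
POLA1, chrX:24693768-24693917, plus strand: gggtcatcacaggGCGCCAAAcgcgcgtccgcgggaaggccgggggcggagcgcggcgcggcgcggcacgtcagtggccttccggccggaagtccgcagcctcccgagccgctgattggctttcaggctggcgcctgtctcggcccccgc
POLA2, chr11:65261812-65261961, plus strand: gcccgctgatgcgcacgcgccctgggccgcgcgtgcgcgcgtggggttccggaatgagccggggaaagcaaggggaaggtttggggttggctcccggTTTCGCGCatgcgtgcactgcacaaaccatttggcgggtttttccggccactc
POLE, chr12:132687343-132687492, minus strand: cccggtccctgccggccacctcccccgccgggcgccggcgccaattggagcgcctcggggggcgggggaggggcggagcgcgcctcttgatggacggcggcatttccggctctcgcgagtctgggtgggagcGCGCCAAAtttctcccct
ORC3, chr6:87589985-87590134, plus strand: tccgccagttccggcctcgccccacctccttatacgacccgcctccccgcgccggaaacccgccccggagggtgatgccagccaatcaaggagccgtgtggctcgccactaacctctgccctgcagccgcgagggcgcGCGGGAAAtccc
DTL, chr1:212035598-212035747, plus strand: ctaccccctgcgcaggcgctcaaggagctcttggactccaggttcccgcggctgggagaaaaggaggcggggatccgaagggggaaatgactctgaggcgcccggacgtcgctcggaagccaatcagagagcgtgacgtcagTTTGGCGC
PCNA, chr20:5126623-5126772, minus strand: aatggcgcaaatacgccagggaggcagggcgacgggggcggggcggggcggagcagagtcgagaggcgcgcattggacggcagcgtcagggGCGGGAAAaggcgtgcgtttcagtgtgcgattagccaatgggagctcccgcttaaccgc
The E2F words searched were TTTCCCGC, TTTCGCGC, TTTGCCGC and TTTGGCGC, on both strands, in a window from 250 bases before to 50 bases after the start. RefSeq windows matched 41 of the 45 members; GINS4, POLD3, RPA2 and RPA3 have no entry. An E2F word was present in 14 of the 41 (34.1%), where 5.29% of tested genes with a window had one. It was present in 6 of the 12 lower members with a window (CLSPN, POLA1, ORC3, DTL, POLE and POLE2) and in 8 of the 29 that did not pass (PCNA, TYMS, POLA2, RFC3, LIG1, GINS1, GINS2 and GINS3). POLA1 and POLA2, which encode subunits of the same complex and differed in their response, both hold one. It starts at -137 from the gene start in POLA1 and at -53 in POLA2. Whether the word bears on the response was not tested. The CCAAT word bound by NF-Y was in 22 of the 41 (53.7%, against 36.4% of tested genes), and TTTGAA, the CHR word found in promoters of mitotic genes, in 2 (RRM1 and DBF4), or 4.88% against 9.78%. No match of one motif overlapped a match of another in these windows. A match is a string of letters, not a measured binding site.

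Among the 9 members that encode subunits of polymerases alpha, delta and epsilon, 4 fell and 5 did not pass. That is 44.4% lower, against 16.1% of all tested genes. Their log2 fold changes ran from -2.57 to 0.14. The small subunits POLD4, POLE3 and POLE4 are not members and stand in the list of other replication genes, where POLD4 rose (1.51 ± 0.31, adjusted p = 0.00688). POLA1 (ENSG00000101868; chromosome X, 24693919 to 24996986 in GENCODE 29 on GRCh38) encodes the catalytic subunit of polymerase alpha, which extends the RNA primers. Its level was 56.1 and 37.6 CPM in DMSO and 6.49 and 9.24 CPM in RB-1. Both RB-1 libraries lay well under both DMSO libraries. POLA1 was 5.95-fold lower (log2 fold change -2.57 ± 0.34 SE, adjusted p = 0.00083), and it passed in all 13 alternative fits (-2.85 to -2.20). Its partner POLA2, the accessory B subunit, stood at 39.8 and 48.0 CPM in DMSO and 42.8 and 39.8 in RB-1, so the groups overlapped (-0.09 ± 0.27). The primase subunits did not pass either. PRIM1, which makes the RNA primer, was at 20.2 and 20.1 CPM in DMSO and 15.8 and 21.3 in RB-1, and PRIM2, the larger regulatory subunit, had a log2 fold change of -0.19 ± 0.28.

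Polymerase epsilon, which copies the leading strand, was lower in both subunits that are members. POLE, the catalytic subunit, was at 152 CPM in both DMSO libraries and at 87.0 and 95.9 in RB-1 (1.66-fold lower, -0.73 ± 0.23, adjusted p = 0.0384). POLE2, its accessory subunit, was at 52.1 and 46.7 CPM in DMSO and 20.3 and 25.4 in RB-1 (2.16-fold lower, -1.11 ± 0.28, adjusted p = 0.0155). The other subunits, POLE3 (-0.34 ± 0.27) and POLE4 (0.94 ± 0.38), did not pass. Polymerase delta, which copies the lagging strand, was lower in 1 of its 3 member subunits and higher in POLD4. The POLD4 transcript has 918 bases. In the length quartile with the shortest transcripts, which holds it, 23.2% of all genes were higher. POLD3, an accessory subunit, went from 73.3 and 60.6 CPM to 30.3 and 41.1 (1.88-fold lower, -0.91 ± 0.28, adjusted p = 0.0355). The catalytic POLD1 (57.9 and 60.0 CPM in DMSO, 79.0 and 51.1 in RB-1) and the accessory POLD2 (156 and 178 in DMSO, 179 and 155 in RB-1) overlapped between the groups. POLE, POLE2 and POLD3 also passed without RB-1 replicate 2 (-0.81, -1.28 and -1.14), but in no other fit with a library left out. In the fits that lacked DMSO replicate 1, then DMSO replicate 2, then RB-1 replicate 1, POLE was at -0.74, -0.71 and -0.66 (adjusted p = 0.153, 0.190 and 0.127), POLE2 at -1.03, -1.17 and -0.95 (0.108, 0.0785 and 0.0639) and POLD3 at -0.76, -1.02 and -0.70 (0.222, 0.115 and 0.134). With library totals alone they were at -0.54, -0.92 and -0.72 (adjusted p = 0.143, 0.0595 and 0.126), and with upper-quartile factors POLE and POLD3 were at -0.63 and -0.80 (0.0664 and 0.0562). With offsets for transcript length POLE was at -0.12 (adjusted p = 0.732).

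**Figure D2:**
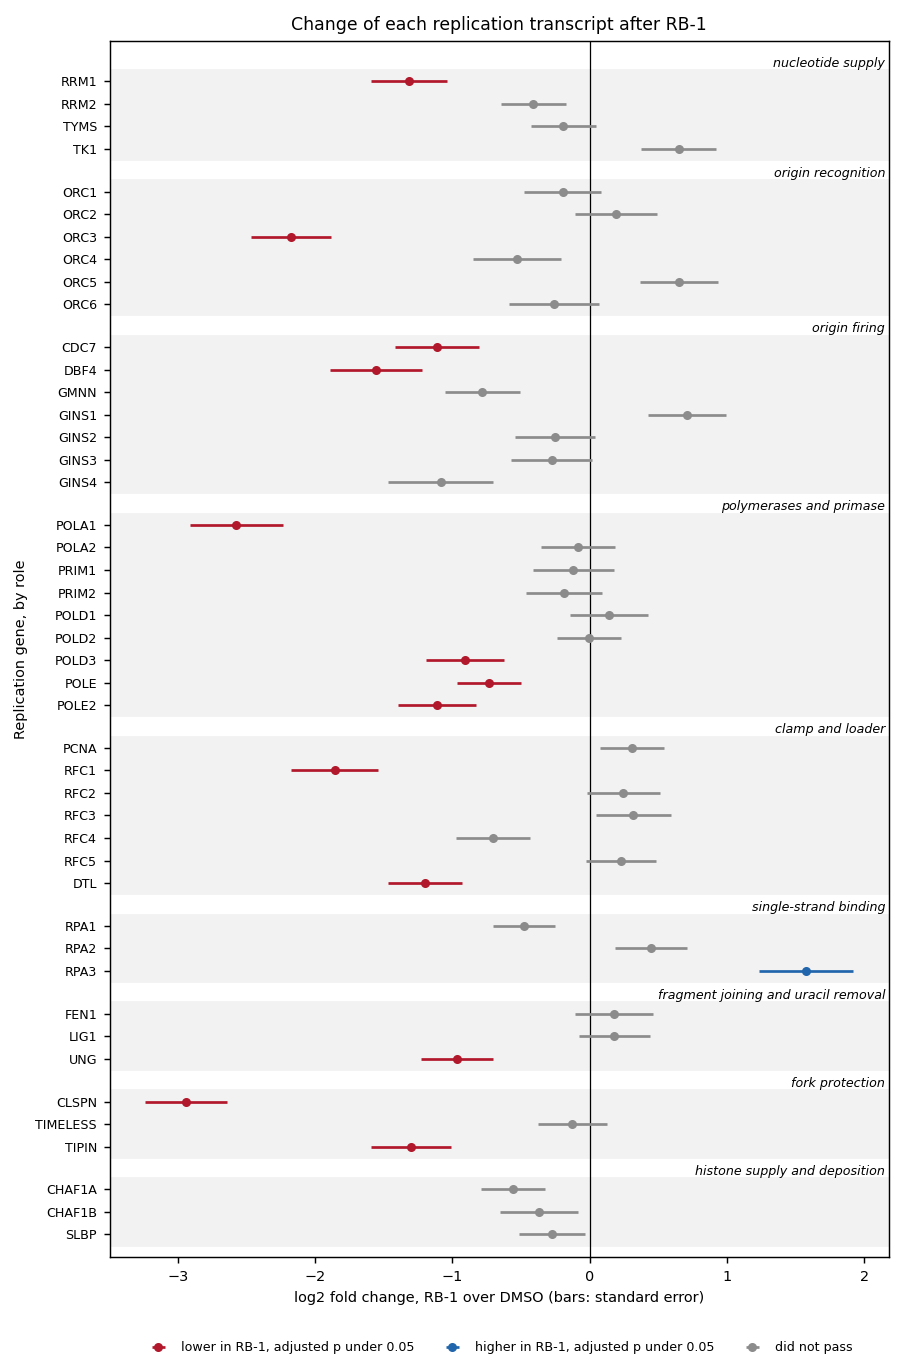
Log2 fold change of each replication gene (RB-1 over DMSO), by role; points are edgeR estimates, bars 1 standard error, red lower, blue higher, grey did not pass. The 13 lower genes reach from POLE at -0.73 to CLSPN at -2.94, and RPA3 at 1.58 is the one higher gene.

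Of the 3 fork protection genes 2 fell (66.7%, against 16.1% of all tested genes). CLSPN had the lowest log2 fold change of the 45 members. It encodes claspin, the adaptor through which a stalled fork activates the checkpoint kinase CHK1 (ENSG00000092853; chromosome 1, 35720218 to 35769967). Its level was 82.4 and 101 CPM in DMSO and 10.47 and 13.5 in RB-1. No library of either group came near the other group (7.68-fold lower, -2.94 ± 0.30, adjusted p = 0.000282; -3.13 to -2.73 over all 13 alternatives). TIMELESS and TIPIN form a heterodimer that travels with the fork. TIPIN, the small partner, was at 26.2 and 23.3 CPM in DMSO and 10.52 and 9.51 in RB-1 (2.47-fold lower, -1.30 ± 0.29, adjusted p = 0.0094), a call lost without DMSO replicate 1 (-1.22, adjusted p = 0.0739). TIMELESS was at 89.6 and 81.3 CPM in DMSO and 86.4 and 70.0 in RB-1, with the groups overlapping (-0.13 ± 0.25).

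Of the 6 subunits of the origin recognition complex, 1 fell and 5 did not pass. That is 16.7% lower, near the 16.1% of all tested genes. ORC3 (ENSG00000135336; chromosome 6, 87590067 to 87667453) encodes a core subunit of the ring. Its level was 54.1 and 52.2 CPM in DMSO and 10.4 and 13.1 in RB-1, well apart (4.52-fold lower, -2.18 ± 0.29, adjusted p = 0.000903; -2.36 to -1.98 over all 13 alternatives). ORC1, the subunit whose level cycles with the cell cycle, was at 28.5 and 31.4 CPM in DMSO and 28.2 and 24.1 in RB-1 (-0.20 ± 0.28). The log2 fold changes of ORC2, ORC4 and ORC6 were 0.19, -0.53 and -0.26, and that of ORC5 was 0.65 ± 0.29 with both RB-1 libraries (30.6 and 26.5 CPM) above both DMSO libraries (16.6 and 19.8). ORC4 depended on the library left out: leaving out RB-1 replicate 2 brought it to -0.97 (adjusted p = 0.0476, past the threshold), and leaving out RB-1 replicate 1 to -0.19 (0.683). With length offsets it was at -0.051.

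Both subunits of the kinase that fires origins fell. DBF4, the regulatory subunit, was at 58.4 and 47.6 CPM in DMSO and 12.9 and 23.2 in RB-1 (2.95-fold lower, -1.56 ± 0.34, adjusted p = 0.00807). CDC7, the catalytic subunit, was at 85.9 and 69.6 CPM in DMSO and 27.6 and 44.3 in RB-1 (2.16-fold lower, -1.11 ± 0.30, adjusted p = 0.0211). In both genes RB-1 replicate 1 was the lowest of the 4 libraries. CDC7 did not pass without DMSO replicate 1 (-0.95, adjusted p = 0.132), DMSO replicate 2 (-1.23, 0.0620) or RB-1 replicate 1 (-0.80, 0.0966), nor with library totals alone (-0.92, 0.0737). GMNN, which encodes geminin, the inhibitor of origin licensing, was at 51.9 and 45.5 CPM in DMSO and 26.95 and 29.7 in RB-1 and narrowly missed the threshold (-0.78 ± 0.27, adjusted p = 0.0520). It passed with RLE factors (-0.79, adjusted p = 0.0489), with DESeq2 (-0.79, 0.0215) and with length offsets (-1.24, 0.00403), and in no other alternative fit.

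The 4 GINS genes, which encode the ring that joins the helicase, did not pass, with log2 fold changes from -1.09 to 0.71. GINS1 was at 39.9 and 42.7 CPM in DMSO and 79.9 and 55.0 in RB-1 (0.71 ± 0.28, adjusted p = 0.0830), above DMSO in both libraries. GINS4 was at 48.0 and 20.97 CPM in DMSO and 17.01 and 15.5 in RB-1 (-1.09 ± 0.38, adjusted p = 0.0566), and its DMSO libraries differed by over 2-fold. GINS2 and GINS3 were at -0.25 and -0.28. Among the alternative fits with all 4 libraries, GINS4 passed with DESeq2 (-1.09, adjusted p = 0.0219) and with the replicate number as a block (-0.97, 0.0400). GINS1 passed with length offsets (0.80, adjusted p = 0.0397). Leaving out RB-1 replicate 2 brought GINS1 past the threshold (0.96, adjusted p = 0.0295), as leaving out DMSO replicate 2 did for GINS4 (-1.54, 0.0244). Without DMSO replicate 1 GINS4 was at -0.37 (adjusted p = 0.613), and without RB-1 replicate 1 GINS1 was at 0.42 (0.309).

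The clamp itself did not pass, and of its loader the large subunit fell while the 4 small ones did not pass. PCNA was the most abundant member per kilobase in DMSO (166 CPM per kilobase of transcript). Its level was 232 and 219.6 CPM in DMSO and 316 and 243 in RB-1, both RB-1 values above DMSO, at a log2 fold change of 0.31 ± 0.24 (adjusted p = 0.350). RFC1 (ENSG00000035928; chromosome 4, 39287456 to 39366375) encodes the large subunit of the loader. It was at 128 and 92.9 CPM in DMSO and 23.1 and 37.9 in RB-1 (3.63-fold lower, -1.86 ± 0.32, adjusted p = 0.00284; -2.26 to -1.54 over all 13 alternatives). The 4 small subunits RFC2, RFC3, RFC4 and RFC5, which are related to one another and complete the ring, did not pass, at 0.24, 0.32, -0.70 and 0.23. RFC4 was the one of them with both RB-1 libraries (39.7 and 34.7 CPM) below both DMSO libraries (65.3 and 56.0; adjusted p = 0.0712), and it passed with DESeq2 (-0.71, adjusted p = 0.0405) and with length offsets (-1.10, 0.00531), and in no other alternative fit. DTL encodes the adaptor that sends proteins on chromatin-bound PCNA to degradation. It went from 105 and 121 CPM to 41.2 and 57.3 (2.29-fold lower, -1.20 ± 0.27, adjusted p = 0.0094), but did not pass when DMSO replicate 2 (-1.07, adjusted p = 0.0811) or RB-1 replicate 1 (-0.98, 0.0563) was left out.

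The trimer RPA coats single-stranded DNA at the fork, and of its subunits 1 rose and the other two did not pass. RPA3 (ENSG00000106399; chromosome 7, 7636518 to 7718607), the smallest, was the only member called higher. It was at 27.7 and 20.4 CPM in DMSO and 93.3 and 50.1 in RB-1, so the RB-1 libraries themselves differed widely but both lay above DMSO (2.98-fold higher, 1.58 ± 0.34, adjusted p = 0.00871). With DMSO replicate 2 left out it no longer passed (1.39, adjusted p = 0.0642), nor with RB-1 replicate 1 left out (1.07, 0.0528). RPA2 was at 53.1 and 51.4 CPM in DMSO and 79.2 and 62.9 in RB-1 (0.44 ± 0.26), and RPA1, the large DNA-binding subunit, at 318 and 269 in DMSO and 218 and 204 in RB-1 (-0.48 ± 0.23). Neither passed. In each gene the groups did not overlap, which held for 69.7% of all tested genes.

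Of the 4 genes of nucleotide supply 1 fell (25%, against 16.1% of all tested genes) and 3 did not pass. Ribonucleotide reductase, which makes deoxynucleotides, has a large subunit from RRM1 and a small one from RRM2. RRM1 was at 294 and 225 CPM in DMSO and 82.3 and 126 in RB-1 (2.49-fold lower, -1.32 ± 0.28, adjusted p = 0.00713), and did not pass without RB-1 replicate 1 (-1.04, adjusted p = 0.0547). RRM2 was at 232 and 244 CPM in DMSO and 203 and 155 in RB-1, lower in both but not past the threshold (-0.41 ± 0.24, adjusted p = 0.215). TK1, the thymidine salvage kinase, lay above DMSO (110.3 and 98.8 CPM) in both RB-1 libraries (201 and 126; 0.65 ± 0.27, adjusted p = 0.100), and passed without RB-1 replicate 2 (0.95, adjusted p = 0.0260). It was at 0.28 (adjusted p = 0.479) without RB-1 replicate 1 and at 0.32 (0.359) with length offsets. TYMS, thymidylate synthase, had a log2 fold change of -0.19 ± 0.24 and did not pass. Its value is uncertain, because 39.1% of its exon bases lie opposite ENOSF1, and no source used here tells whether reads were assigned by strand. Pseudogenes named after 10 members (RRM2, TYMS, DBF4, POLD2, PCNA, RFC3, RFC5, RPA2, FEN1 and UNG) could share reads with them, so their values are uncertain to that extent.

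Of the genes of fragment joining, uracil removal and chromatin assembly, UNG alone passed. FEN1, the nuclease that trims Okazaki fragment flaps, was at 196 and 173 CPM in DMSO and 265 and 152 in RB-1, and LIG1, the ligase that seals them, at 81.5 and 77.2 in DMSO and 104 and 75.8 in RB-1. Both overlapped between the groups (0.18 ± 0.28 and 0.18 ± 0.26). UNG, which removes uracil from DNA, fell from 106 and 97.7 CPM to 59.9 and 44.2 (1.96-fold lower, -0.97 ± 0.26, adjusted p = 0.0209). It did not pass when DMSO replicate 1 (-0.91, adjusted p = 0.116), DMSO replicate 2 (-1.01, 0.0962) or RB-1 replicate 2 (-0.77, 0.0593) was left out, nor with library totals alone (-0.78, 0.0689). CHAF1A and CHAF1B encode subunits of the chaperone that deposits histones behind the fork, and SLBP binds histone mRNA. These genes did not pass (-0.56, -0.37 and -0.28). In each the RB-1 libraries lay below the DMSO libraries, as in 34.3% of all tested genes. For CHAF1B the gap was narrow (44.9 and 64.1 CPM in DMSO, 43.3 and 40.9 in RB-1). CHAF1B was at -0.07 without DMSO replicate 2 and at -0.11 with length offsets.

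**Figure D3:**
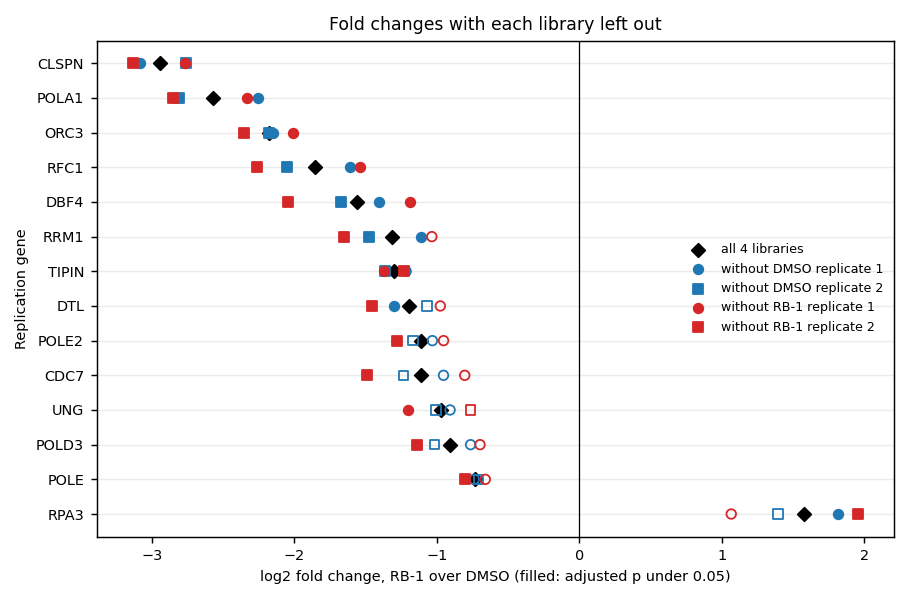
Log2 fold changes of the 14 called members with all 4 libraries (black) and with each library left out; filled marks passed at an adjusted p under 0.05, open marks did not, and some marks lie on top of others. CLSPN, POLA1, ORC3, RFC1 and DBF4 are filled throughout, and the other 9 genes have at least 1 open mark.

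Large against small subunits were compared as the ratio of their counts within each library, which does not depend on how libraries are scaled to one another. For 16 pairs, with 11 distinct large subunits, the difference between the group means of the log2 ratio was taken. In 9 pairs both RB-1 ratios lay below both DMSO ratios, in 3 they lay above, and in 4 the groups overlapped. With 2 libraries against 2, the exact two-sided permutation test cannot give a p below 0.333, which those 12 pairs reached (0.444 adjusted over the 16 pairs). For single genes, groups did not overlap in 69.7% of all tested genes. The ratios share genes, RFC1 with 4 partners and RPA1 and POLD1 with 2 each, so the pairs are not independent.

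The pair with the lowest value was POLA1 to POLA2. The ratio of their counts was 1.41 and 0.783 in DMSO and 0.152 and 0.232 in RB-1, a log2 difference of -2.48. RFC1 was lower against each small loader subunit: its ratio to RFC3 was 3.20 and 2.84 in DMSO and 0.49 and 0.869 in RB-1 (log2 difference -2.21), and the differences against RFC2, RFC5 and RFC4 were -2.12, -2.10 and -1.18. In each of these, RB-1 replicate 1 held the lower ratio. RPA1 to RPA3 went from 11.5 and 13.2 to 2.33 and 4.06 (-1.998), RPA1 to RPA2 from 5.98 and 5.24 to 2.75 and 3.24 (-0.91), and RRM1 to RRM2 from 1.27 and 0.923 to 0.405 and 0.814 (-0.91). DBF4 to CDC7, both called lower, was at -0.47.

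The opposite order was found as well. TIMELESS to TIPIN went from 3.42 and 3.49 to 8.20 and 7.35 (1.17), POLD1 to POLD3 from 0.79 and 0.99 to 2.61 and 1.24 (1.03) and POLE to POLE2 from 2.91 and 3.26 to 4.28 and 3.77 (0.38). In these pairs the small subunit had the lower log2 fold change. PRIM2 to PRIM1 (-0.04), POLD1 to POLD2 (0.11), ORC1 to ORC6 (0.01) and CHAF1A to CHAF1B (-0.21) overlapped between the groups. By leaving out RB-1 replicate 1, RRM1 to RRM2 came to -0.41, POLD1 to POLD3 to 0.49 and RFC1 to RFC4 to -0.72.

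**Figure D4:**
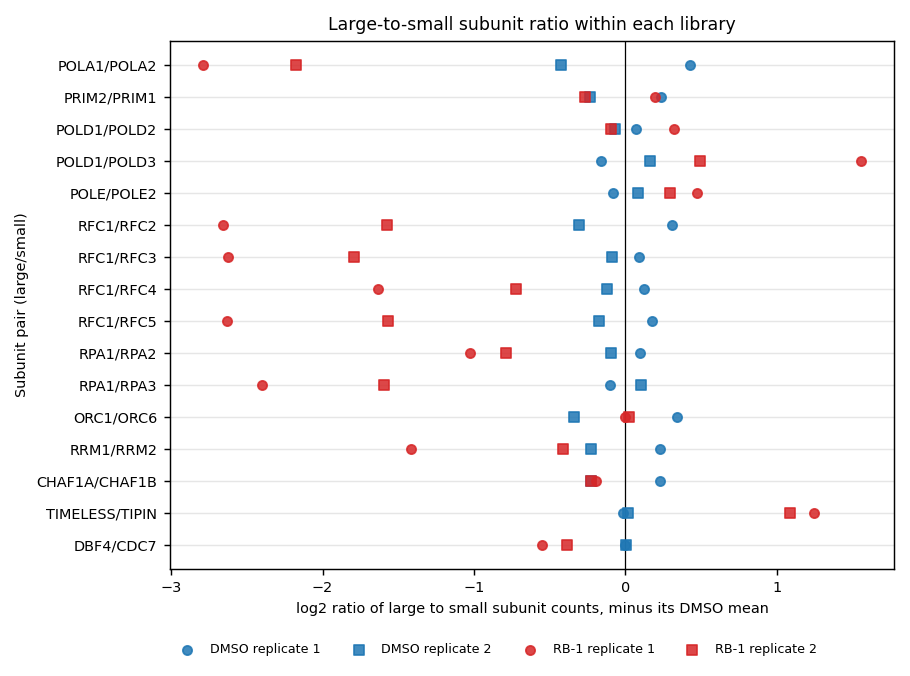
Log2 ratio of large to small subunit counts in each library, with the DMSO mean of the pair set to 0; colours and marks as for the expression plot. The POLA1, RFC1 and RPA1 pairs have both RB-1 marks to the left, and TIMELESS/TIPIN, POLD1/POLD3 and POLE/POLE2 have both to the right.

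Transcript length moved with these values, and its part in them was not tested beyond the offsets given here, and large subunits usually have the longer transcript (13 of the 16 pairs). Length was taken from GENCODE 29. Over the 45 members the log2 fold change went down with transcript length (Spearman rho -0.40, Pearson r -0.38 across genes, which are not replicates and share the same 4 libraries), and over 13596 tested genes with a length the rho was -0.37. Of the members with a transcript over 3000 bases, 9 of 22 were lower, and of the others 4 of 23. The share of all tested genes at that split was not taken. By length quartile, from the shortest transcripts to the longest, 5.12%, 11.1%, 17.3% and 30.8% of all genes were lower. Among the members it was 2 of 15, 2 of 8, 6 of 17 and 3 of 5. Within those length quartiles, 34 of the 45 members lay below the median log2 fold change of all tested genes in their quartile. From the shortest quartile to the longest, the members' median was -0.19 (15 members), -0.0078 (8), -0.48 (17) and -0.73 (5), against 0.46, 0.13, -0.11 and -0.44 for all genes. The gap was narrowest in the second quartile.

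Between themselves, the RB-1 libraries differed by transcript length too. Over the members, the log2 ratio of RB-1 replicate 2 to replicate 1 went up with transcript length (rho 0.43), as over all genes (0.42), while the DMSO libraries differed less (-0.19 and -0.11). Among the 13 lower members 11 were lower in RB-1 replicate 1 than in replicate 2, and among the 31 that did not pass 27 were higher in replicate 1. The matching shares over all tested genes were not taken, and the calls rest on these same libraries. These counts therefore do not set the members apart from other genes. With offsets that remove the smooth relation of counts to length in each library, 14 members were lower and 2 higher (RPA3 and GINS1, the latter at 0.80 with adjusted p = 0.0397), where 15.5% of all tested genes were lower and 14.4% higher. POLA1 was then at -2.20, CLSPN at -2.73, RFC1 at -1.57 and ORC3 at -2.24. The log2 difference in ratio was then -2.26 for POLA1 to POLA2, -1.81 for RFC1 to RFC3 and -1.55 for RPA1 to RPA3, but -0.19 for RPA1 to RPA2 and -0.48 for RFC1 to RFC4. It was 1.796 for TIMELESS to TIPIN and 1.27 for POLE to POLE2. Over the 16 pairs its median was -0.69 without the offsets and -0.37 with them. RFC2, RFC5, RPA2 and PCNA, which were above 0 without the offsets, were at -0.07, -0.10, -0.05 and -0.13 with them.

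**Figure D5:**
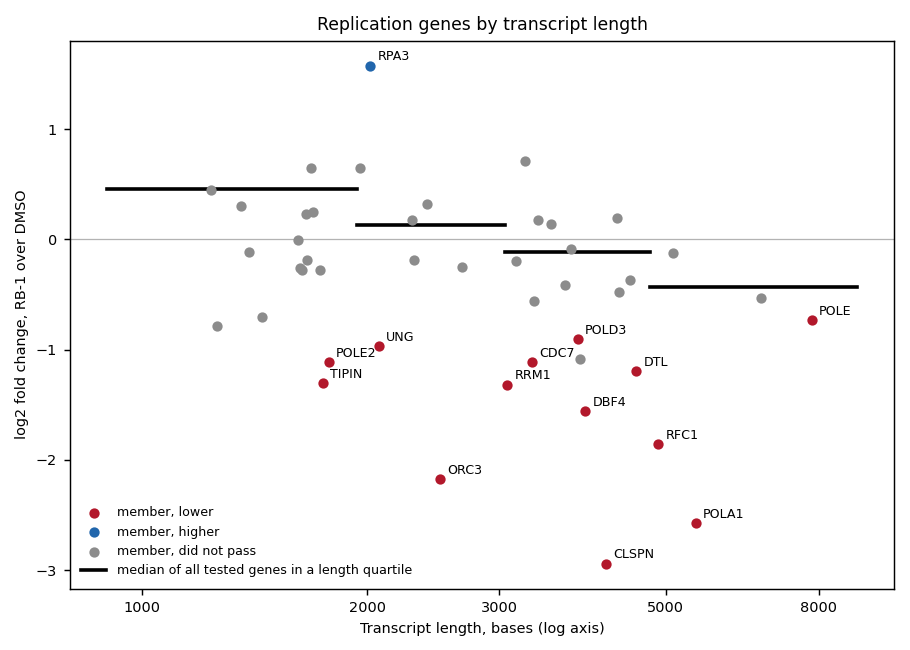
Log2 fold change of the 45 members against transcript length in bases (log axis), red lower, blue higher, grey did not pass; black bars give the median of all tested genes in each length quartile, drawn over the lengths shown. Most members lie below the bar of their quartile, and ORC3, TIPIN, POLE2 and UNG are lower genes with transcripts under 3000 bases.

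Other genes of the replication pathway, from a list of 34 that holds no member, moved in both directions, where the background is the same 16.1% lower and 12.8% higher: 7 fell, 3 rose and 24 did not pass, with a median log2 fold change of -0.02. The 4 with the smallest p all fell. TOPBP1 (5378 bases), ATAD5 (6869) and WDHD1 (5996) have transcripts in the longest length quartile, where 30.8% of all genes were lower. MCM10 (3157 bases) is in the third, where 17.3% were. With length offsets TOPBP1, ATAD5 and WDHD1 were at -2.23, -2.21 and -1.87. TOPBP1, a scaffold of origin firing and checkpoint activation, was at 153 and 118 CPM in DMSO and 18.4 and 26.6 in RB-1 (6.02-fold lower, -2.59 ± 0.30, adjusted p = 0.000448). ATAD5, which unloads PCNA, was 6.57-fold lower (-2.72 ± 0.33), and WDHD1, which ties polymerase alpha to the helicase, 4.98-fold lower (-2.32 ± 0.31). MCM10, which helps the helicase to start, was 4.61-fold lower (-2.20 ± 0.32). These 4 passed in all 13 alternative fits. The 3 that rose are named because of their values. They were POLD4, the smallest subunit of polymerase delta (1.51 ± 0.31), DCK and DUT. DCK is a kinase of nucleoside salvage (1.05 ± 0.26), and DUT clears dUTP (1.03 ± 0.29). Their transcripts have 918, 2614 and 2147 bases. Over all genes, 23.2% were higher in the shortest quartile, which holds POLD4, and 13.4% in the second, which holds DCK and DUT. No gene of this list was higher without DMSO replicate 1, 1 was when DMSO replicate 2 or RB-1 replicate 1 was missing, and 7 were when RB-1 replicate 2 was. In those fits 5.52%, 3.76%, 4.70% and 14% of all tested genes were higher, in the order DMSO replicates 1 and 2, RB-1 replicates 1 and 2.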

How the data were processed

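The authors deposited whole-number, unnormalised counts for human Ensembl genes, 1 column per library. Not given in the sources used here were aligner, counter and strand setting. Mouse builds (GRCm38, mm10) are listed in the submitters' processing notes although the IDs are human, and which build was used could not be settled. Positions and lengths come from GENCODE 29 by ID, using each gene's transcript with the longest coding sequence.

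Symbols matched 20148 IDs. Counts were filtered with filterByExpr, scaled by TMM and tested with edgeR 4.0.16 (R 4.3.3; glmQLFit, robust, legacy off; two-sided; Benjamini-Hochberg). Tested on simulated data for RB-1 against DMSO over 13612 genes, the fit recovered 17.7% of genes changed 2-fold and 82.9% of those changed 4-fold. The simulation changed a far smaller share of genes than the 28.8% called in these data. That makes the adjusted p stricter there, so these rates need not hold here. A 2-fold change was often missed in the simulation and may be missed in these data too. Ratios used counts plus 0.5. No replicate was a repeat deposit of another library: they differed beyond counting noise (chi-square per degree of freedom 257 for DMSO and 128 for RB-1, on genes averaging 10 counts or more), which says nothing on whether they are biological replicates.

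Members and lists were chosen with earlier results of these data known. All members may be named; of the other replication list, the 4 with the smallest p were, and POLD4, DCK, DUT, POLE3 and POLE4 were named outside that rule, after their values were seen. Other settings tried were upper-quartile or RLE factors, totals alone, no filter, DESeq2 1.42.0, limma-voom (limma 3.58.1), each library left out, a replicate block, length offsets (loess span 0.5), a pseudocount of 5 for ratios and, added after seeing the data, edgeR's legacy fit.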

Additional observations from a re-analysis of the deposited data

How the results depend on the processing

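Across the 13 alternative fits the 13 lower members and RPA3 kept their direction, and CLSPN, POLA1, ORC3, RFC1 and DBF4 passed in every one. The number of lower members was 8 with library totals alone, where 10.3% of all tested genes were lower. It stayed between 11 and 16 in the other fits that used all 4 libraries. In those fits 12.3% (no filter) to 17.4% (DESeq2) of all tested genes were lower. The number of higher members was 2 with length offsets (14.4% of all tested genes) and 0 to 3 with 1 library left out (3.76% to 14%). In the list of other replication genes, 0 to 7 were higher over the same leave-outs, against the same 3.76% to 14% of all tested genes. Some members that did not pass changed sign. With library totals alone TYMS was at 0.0044, ORC1 at 1.8e-05, POLA2 at 0.12, PRIM1 at 0.082, POLD2 at 0.20 and TIMELESS at 0.060. With upper-quartile factors POLA2 was at 0.014 and POLD2 at 0.098. With length offsets POLA2 was at 0.076, TIMELESS at 0.23, PCNA at -0.13, RFC2 at -0.071, RFC5 at -0.10 and RPA2 at -0.046. Upper-quartile factors and library totals shifted the median log2 fold change of all genes from 0.01 to 0.12 and 0.21, and the members' median from -0.28 to -0.18 and -0.08. They called 13.4% and 10.3% of all tested genes lower and 15.9% and 15.1% higher, against 16.1% and 12.8%. The cause of these changes was not tested.

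With 1 library left out, the log2 fold change ranged from -0.037 to 0.49 for ORC2, -0.61 to 0.23 for ORC6, -0.22 to 0.076 for POLA2, -0.35 to 0.085 for PRIM1, -0.39 to 0.069 for PRIM2, -0.20 to 0.42 for POLD1, -0.11 to 0.12 for POLD2, -0.28 to 0.52 for FEN1, -0.060 to 0.39 for LIG1 and -0.28 to 0.018 for TIMELESS. The log2 difference in ratio ranged from -0.27 to 0.20 for PRIM2 to PRIM1, -0.095 to 0.32 for POLD1 to POLD2, -0.33 to 0.35 for ORC1 to ORC6 and -0.44 to 0.019 for CHAF1A to CHAF1B.

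With length offsets the ratio of PRIM2 to PRIM1 differed by 0.26. Over all tested genes, the deviations of same-numbered libraries from their group means had a correlation of -0.096. With 2 libraries per group, that cannot show whether the replicate numbers pair the libraries. With the replicate number as a block, 13 members were lower and 1 higher, where 17% and 12.8% of all tested genes were. POLE was at -0.74 (adjusted p = 0.0543) and GINS4 passed (-0.97, adjusted p = 0.0400). Every member had at least 245 counts in each library, and the 2 libraries per group limit the precision.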
